A study of Rattus norvegicus with 8 samples.

Results

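The genes of mitochondrial oxidative phosphorylation were followed across rat kidney allografts. They were taken by name from the annotation of a 1-colour Agilent whole-genome array: names beginning with Ndufa, Ndufb, Ndufc, Ndufs, Ndufv, Uqcr, Atp5 or Cox4 to Cox8, and the names Sdha, Sdhb, Sdhc, Sdhd, Cyc1 and Cycs. The names covered 85 probes of 73 genes, of which 83 probes of 72 genes passed a filter on dim spots: the 2 arrays of some group had to be well above background. In all, 24921 genes passed this filter. Of the 72 genes, 69 could be tested, because the only probes of Atp5b, Atp5h and Ndufs6 had a spot flagged as an outlier on some array. The gene that did not pass was Cox6b, whose probe is described in the files as similar to uroplakin Ia and was well above background on 1 array only.

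Kidneys from Dark Agouti (DA; RT1a) donors had been placed orthotopically in male Lewis (RT1l) recipients without kidneys of their own, after 25 min at 4 °C in University of Wisconsin solution, and were collected 24 h later. The rats weighed 120 to 250 g, and their age is not given in the sources used. The 8 arrays formed 4 groups of 2 biological replicates. Recipients of the anti-IL6R group were given 500 µg of an antibody against the interleukin-6 receptor intravenously right after surgery, and those of the prednisolone group 15 mg/kg of this glucocorticoid. Both treated groups resembled the untreated high-difference group, per the series' design text, in which the body weight of the donor was 20 to 50% under that of the recipient. In the untreated low-difference group it was 0 to 20% under it. All grafts were allogeneic and had been stored in the cold, and none of the 8 was an untransplanted kidney. The arrays measured RNA of whole tissue pieces, in which donor and recipient cells are mixed.

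Oxidative phosphorylation passes electrons from NADH (complex I) and succinate (complex II) through ubiquinone, complex III and cytochrome c to oxygen at complex IV, and ATP synthase (complex V) uses the resulting proton gradient to make ATP. Most subunits are encoded in the nucleus and imported, while a small core is encoded by the mitochondrial genome. In the kidney the tubule segments that reabsorb most salt, the proximal tubule and the thick ascending limb, are rich in mitochondria. Several subunits of complex IV exist as a widely used isoform and a second one best known from heart and skeletal muscle, lung or testis.

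Of the 69 genes tested, 30 belonged to complex I, 4 to complex II, 6 to complex III, 14 to complex IV and 11 to complex V, and 1 was cytochrome c. The remaining 3 bore a matching name and were assigned to no complex. The 14 of complex IV include Cox6c1, which RefSeq lists as a pseudogene, and Cox7a2l, a factor of respiratory supercomplexes. Cox4nb is the array's name for Emc8, a component of a membrane protein insertase of the endoplasmic reticulum. Ndufaf1 is an assembly factor of complex I, and Atp5s is the older name of Dmac2l. Leaving out Cox4nb, Ndufaf1 and Atp5s took the median log2 difference between high-difference and low-difference grafts from -0.276 to -0.280. For anti-IL6R against high-difference grafts it went from 0.109 to 0.111, and for prednisolone against them from 0.160 to 0.185. The probes of 68 of the 69 genes were well above background on all 8 arrays, that of Cox6b2 on 7, and none was saturated on any array. Spots well above background made up between 64.5% and 74.0% of gene spots on the 8 arrays. High-difference grafts had smaller shares (66.5%, 65.3%) than low-difference grafts (71.7%, 72.1%). Prednisolone replicate 1 had 70.2%, replicate 2 had 64.5%. The 75th percentile of log2 signals, taken off each array, was also lower in high-difference (9.73, 9.82) than in low-difference grafts (9.94, 10.21). Prednisolone replicate 1 had 10.50, replicate 2 had 9.72. The part of these array differences in the values below was not tested.

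Some promoters of these genes hold short motifs of factors known to act on nuclear genes of respiration. A few promoters are printed because they belong to the genes on which the values below turn. A RefSeq promoter window of the GRCr8 assembly, with 250 bases before the start site and 50 from it on, was held for 62 of the 72 genes. The windows were searched on both strands for the letters GCATGCG (the core of the NRF1 site), CCGGAAG (an ETS core, as bound by GABP), AAGGTCA (a site bound by estrogen-related receptors) and AAGATGG (a YY1 core). Matches are in capitals, on the other strand as the reverse complement, and the sequences run 5′ to 3′ on the gene's strand.
Ndufa9 (chr4:161374121-161374420, minus strand): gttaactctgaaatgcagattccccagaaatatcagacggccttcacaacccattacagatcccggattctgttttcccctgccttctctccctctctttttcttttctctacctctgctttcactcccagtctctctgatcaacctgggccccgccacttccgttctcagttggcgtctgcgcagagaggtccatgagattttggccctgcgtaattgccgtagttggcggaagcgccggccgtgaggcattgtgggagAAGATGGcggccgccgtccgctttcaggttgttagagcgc
Uqcrc2 (chr1:184598990-184599289, plus strand): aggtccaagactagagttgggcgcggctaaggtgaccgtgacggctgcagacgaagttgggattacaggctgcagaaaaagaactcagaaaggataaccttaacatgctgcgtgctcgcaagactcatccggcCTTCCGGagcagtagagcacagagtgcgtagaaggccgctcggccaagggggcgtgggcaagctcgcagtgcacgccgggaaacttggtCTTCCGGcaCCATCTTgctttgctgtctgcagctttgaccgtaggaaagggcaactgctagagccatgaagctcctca
Cycs (chr4:80984718-80985017, minus strand): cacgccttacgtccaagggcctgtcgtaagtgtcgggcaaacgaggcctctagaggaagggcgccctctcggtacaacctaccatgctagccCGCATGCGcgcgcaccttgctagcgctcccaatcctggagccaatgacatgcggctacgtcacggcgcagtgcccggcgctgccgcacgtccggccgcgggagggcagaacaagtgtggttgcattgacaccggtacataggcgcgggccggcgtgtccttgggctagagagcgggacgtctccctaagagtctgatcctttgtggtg
Cox8a (chr1:213833574-213833873, minus strand): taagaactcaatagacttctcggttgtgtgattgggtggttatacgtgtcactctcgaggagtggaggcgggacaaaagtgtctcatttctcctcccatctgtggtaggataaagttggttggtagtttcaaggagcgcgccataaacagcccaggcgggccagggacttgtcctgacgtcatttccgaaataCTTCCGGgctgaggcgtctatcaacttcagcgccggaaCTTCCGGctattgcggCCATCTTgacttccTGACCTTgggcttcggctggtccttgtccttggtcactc
Cox8b (chr1:205408224-205408523, minus strand): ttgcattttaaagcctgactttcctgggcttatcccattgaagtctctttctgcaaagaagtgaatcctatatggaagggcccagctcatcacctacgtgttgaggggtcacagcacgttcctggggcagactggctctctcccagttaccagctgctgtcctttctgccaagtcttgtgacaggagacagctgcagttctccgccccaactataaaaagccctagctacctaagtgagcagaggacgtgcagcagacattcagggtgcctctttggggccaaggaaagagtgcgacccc

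The YY1 letters stand once in the windows of Ndufa9, Uqcrc2 and Cox8a, and the ETS letters stand 2 times each in Uqcrc2 and Cox8a. Cox8a also holds the receptor site. The window of Cycs holds the NRF1 letters on both strands at positions that overlap, and that of Cox8b, the muscle isoform of Cox8a, holds none of the 4 motifs. ETS letters were found in 30.6% of the 62 windows, against 9.21% of all 27457 windows, and YY1 letters in 22.6%, against 7.26%. NRF1 letters were found in 14.5%, against 3.54%, and the receptor site also in 14.5%, against 4.37%. A match describes the letters of a window and does not show that a factor binds there. Member genes with the ETS letters had a median log2 difference of -0.24 between high-difference and low-difference grafts (19 genes), and those without had -0.29 (41 genes). For the receptor site the medians were -0.33 with it (8 genes) and -0.28 without (52 genes). The NRF1 letters gave -0.24 with them (9 genes) and -0.29 without (51 genes). With the YY1 letters the median was -0.27 (13 genes), and without them -0.28 (47 genes). These differences were not tested.

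Levels are log2 of the processed signal relative to the 75th percentile of the same array, so a level is comparable between arrays for 1 probe but not between probes. For each gene the level on an array was set against its own mean over the 8 arrays, and the median of these deviations over the 69 genes was taken. This median was 0.02 and -0.11 with anti-IL6R, -0.22 and 0.30 with prednisolone, -0.06 and -0.24 on the high-difference arrays, and 0.27 and 0.04 on the low-difference arrays. The 2 high-difference arrays lay below both low-difference arrays, the anti-IL6R arrays overlapped with the high-difference ones, and the replicates of the prednisolone group stood at opposite ends. On the second prednisolone array 64 of 69 genes were above their own mean, against 9 of 69 on the first. The genes also moved together between replicates: the first replicate was higher for 55 of 69 genes in anti-IL6R grafts, for 5 in prednisolone grafts, for 51 in high-difference grafts and for 63 in low-difference grafts. The typical gene differed between the prednisolone replicates by 0.53 on the log2 scale, against 0.13 between the anti-IL6R replicates, 0.23 between the high-difference and 0.24 between the low-difference replicates. Every value that includes the prednisolone group rests on 2 arrays that disagree in this way. The second prednisolone array held the highest level of 33 genes and the first low-difference array that of 27, while the lowest level of 26 genes was on the second high-difference array and that of 20 on the first prednisolone array.

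**Figure D1:**
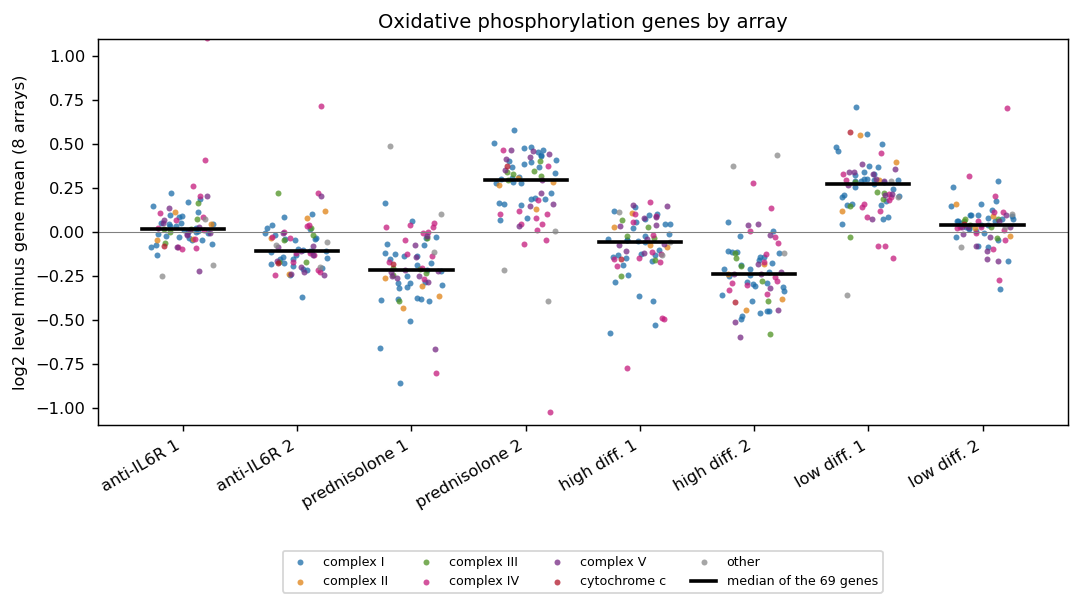
Each point is 1 of the 69 genes on 1 of the 8 arrays, coloured by complex, with the log2 level minus the gene's own mean over the arrays on the vertical axis and black bars for the median of the 69 genes. The medians reach 0.30 on the second prednisolone array and -0.24 on the second high-difference array, and 6 points lie outside the axis limits of 1.1 either way, 5 of them of Cox8h and 1 of Cox6b2.

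Respiratory genes of every complex tended to be lower in high-difference than in low-difference grafts, the untreated groups set apart by the weight difference between donor and recipient. Both groups lay on 1 slide. Of the 69 genes, 62 had a difference below 0 and 7 above 0, beside 44% below 0 among all 24461 genes tested. The mean signals of the 69 genes had a median percentile of 97.5 among the genes tested. All genes are thus a dimmer background, here and in the other comparisons, and no set matched for signal was examined. The median was -0.28 on the log2 scale, or 0.826-fold, with a range from -2.76 to 0.47, while the median of all genes was 0.07. Both high-difference arrays were below both low-difference arrays for 46 genes and above them for 2, where all genes gave 23% and 33.5%. Limma called 0 of the 69 genes at an adjusted p under 0.05, as it called 0% of all genes, and the lowest adjusted p among the 69 was 0.31. At an unadjusted p under 0.05 there were 3 genes, all lower and all of complex I, a smaller share than the 14.7% of all genes. With 2 arrays a group, no single gene's difference passed the test.

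By complex, the medians for high minus low were -0.29 for complex I (28 of 30 genes below 0), -0.37 for complex II (4 of 4), -0.26 for complex III (6 of 6), -0.30 for complex IV (11 of 14) and -0.26 for complex V (10 of 11). The groups did not overlap, with high-difference lower, for 23 of 30, 3 of 4, 5 of 6, 8 of 14 and 5 of 11 genes in the same order. The medians of the 5 complexes lay between -0.37 and -0.26. The replicate spread, as the SD for the median of the 69 genes, was 0.21. It is pooled over the 4 groups, of which the prednisolone replicates lay furthest apart. Because it measures shifts of all 69 genes between arrays, it is no measure of differences between complexes on the same arrays. No test of a difference between complexes was made. Genes with a difference above 0 were Ndufa5, Ndufv1, Cox4i2, Cox6a2, Cox7a2l, Atp5d and Cox4nb, which were picked out after their values were seen, with values from 0.01 for Cox7a2l to 0.47 for Cox4nb.

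**Figure D2:**
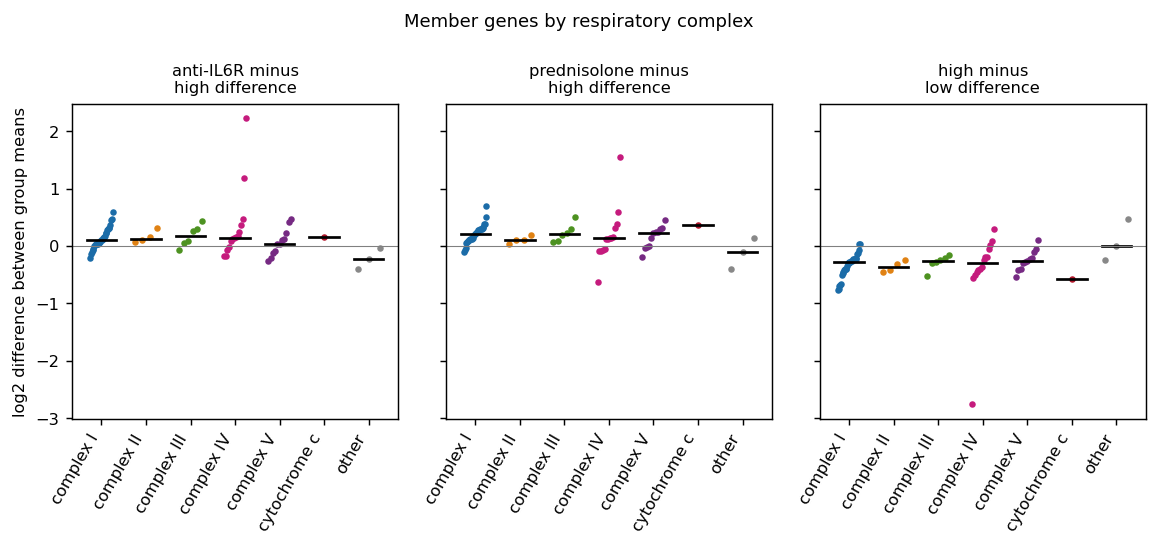
Each point is 1 gene, placed by complex, with the log2 difference between group means on the vertical axis and a black bar for the median of the complex, for anti-IL6R minus high difference, prednisolone minus high difference and high minus low difference. Nearly all points of complexes I, II, III and V lie below 0 in the last panel, and the single point near -2.76 is Cox8h.

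In complex I, Ndufa9, an accessory subunit near the ubiquinone site, had log2 levels of 5.26 and 5.25 in anti-IL6R grafts, 5.11 and 5.58 in prednisolone grafts, 4.62 and 4.70 in high-difference grafts and 5.22 and 5.44 in low-difference grafts. Both high-difference arrays were the lowest of all 8, and the other 3 groups overlapped. The difference of high minus low was -0.67 ± 0.22 (SE, limma adjusted p = 0.31). Against untreated high-difference grafts, the difference was 0.60 ± 0.22 for anti-IL6R (adjusted p = 0.25) and 0.69 ± 0.22 for prednisolone (adjusted p = 0.36). A second probe of Ndufa9 gave smaller differences, of -0.42 for high minus low, 0.30 for anti-IL6R and 0.24 for prednisolone. Ndufv2, a core subunit of the NADH-oxidising module that carries an iron-sulfur cluster, had 7.18 and 7.05 in anti-IL6R grafts, 6.64 and 7.31 in prednisolone grafts, 6.46 and 6.82 in high-difference grafts and 7.49 and 7.28 in low-difference grafts. The high-difference arrays lay below both low-difference and both anti-IL6R arrays but not below both prednisolone arrays. Its high minus low difference was -0.75 ± 0.27 (SE, adjusted p = 0.32).

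Complex II, succinate dehydrogenase, which also works in the citric acid cycle, was represented by all 4 of its subunits. Sdhd, 1 of its 2 membrane anchors, had 5.97 and 6.04 in anti-IL6R grafts, 5.56 and 6.21 in prednisolone grafts, 5.83 and 5.54 in high-difference grafts and 6.32 and 5.90 in low-difference grafts. The high-difference arrays were below the low-difference ones, by a margin of less than the gap between the low-difference replicates. The difference was -0.42 ± 0.28 (SE, adjusted p = 0.47). For Sdha, the flavoprotein that binds succinate, the difference was -0.46 ± 0.35, and for the iron-sulfur subunit Sdhb and the anchor Sdhc it was -0.24 ± 0.23 and -0.32 ± 0.21. The groups overlapped for Sdha only.

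In complex III, Uqcrc2, a core protein of the matrix side, had 5.49 and 5.31 in anti-IL6R grafts, 5.29 and 5.65 in prednisolone grafts, 5.17 and 4.75 in high-difference grafts and 5.55 and 5.40 in low-difference grafts. Its high-difference arrays were the 2 lowest of the 8. High minus low was -0.52 ± 0.23 (SE, adjusted p = 0.35), anti-IL6R minus high 0.44 ± 0.23 (adjusted p = 0.36) and prednisolone minus high 0.51 ± 0.23 (adjusted p = 0.45). The Rieske iron-sulfur protein Uqcrfs1 and cytochrome c1, encoded by Cyc1, differed by -0.29 ± 0.27 and -0.20 ± 0.24 between high-difference and low-difference grafts. Uqcrb, whose 3 probes all lay lower in high-difference grafts, gave -0.25, -1.16 and -0.47 depending on the probe, and it was picked out for that spread.

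Cytochrome c, encoded by Cycs, shuttles electrons between complexes III and IV and also triggers the apoptosome when released from mitochondria. Its level was 7.18 and 7.09 in anti-IL6R grafts, 7.07 and 7.63 in prednisolone grafts, 7.11 and 6.86 in high-difference grafts and 7.83 and 7.31 in low-difference grafts. The high-difference arrays were below the low-difference arrays and overlapped with both treated groups. Between those groups the difference was -0.58 ± 0.28 (SE, adjusted p = 0.37), and its other 2 probes gave -0.73 and -0.62. Anti-IL6R minus high was 0.15 ± 0.28 (adjusted p = 0.79) and prednisolone minus high 0.37 ± 0.28 (adjusted p = 0.59).

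Complex IV held both the widely used subunits and their tissue isoforms. Cox8a, the widely used form of its smallest subunit, had 7.66 and 7.63 in anti-IL6R grafts, 7.48 and 7.93 in prednisolone grafts, 7.73 and 7.39 in high-difference grafts and 8.20 and 7.95 in low-difference grafts. Both low-difference arrays were higher than all the others. High minus low was -0.51 ± 0.23 (SE, adjusted p = 0.36), and the differences from high were 0.08 ± 0.23 for anti-IL6R and 0.14 ± 0.23 for prednisolone. Cox6c, another nuclear-encoded subunit, had a difference of -0.42 ± 0.19 for high minus low (adjusted p = 0.35). Cox4i1, the common form of the subunit with a regulatory role, had 4.36 and 4.13 in anti-IL6R grafts, 4.38 and 4.45 in prednisolone grafts, 4.22 and 4.32 in high-difference grafts and 4.56 and 4.36 in low-difference grafts. These values spanned a narrow range, and high minus low was -0.19 ± 0.18 (adjusted p = 0.61). For the common forms Cox6a1 and Cox7a2 the difference was -0.06 ± 0.17 and -0.19 ± 0.20.

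Among the tissue isoforms, Cox8h, the array's name for Cox8b, best known from heart, skeletal muscle and brown fat, spread furthest. Its level was -1.07 and -2.25 in anti-IL6R grafts, -4.58 and -0.09 in prednisolone grafts, -3.03 and -4.75 in high-difference grafts and -0.32 and -1.93 in low-difference grafts. Both high-difference arrays were below both low-difference arrays, and the prednisolone arrays lay at nearly the lowest and at the highest level of the series. High minus low was -2.76 ± 1.47 (SE, adjusted p = 0.40), anti-IL6R minus high 2.23 ± 1.47 (adjusted p = 0.45) and prednisolone minus high 1.56 ± 1.47 (adjusted p = 0.67), which became -0.69 without the second prednisolone array. A second probe named for the gene gave 0.27 for high minus low, and its remaining probe was not well above background on any array, so these values belong to 1 probe. Ordered by Cox8h, the 8 arrays stood in the same order as by the median of the distal nephron markers given below, a match seen after the values were known. The part of tissue composition in these values was not tested. Skeletal muscle markers, of which 3 of 8 were tested, had medians of their deviations between -0.21 and 0.24 on the 8 arrays, and adipose markers, of which 4 of 6 were tested, between -0.44 and 0.48.

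Cox6b2, the form described from testis, was measured near background, with levels of -3.59 and -3.98 in anti-IL6R grafts, -5.50 and -5.72 in prednisolone grafts, -5.19 and -4.76 in high-difference grafts and -4.84 and -3.99 in low-difference grafts. Both anti-IL6R arrays were higher than all the others. Anti-IL6R minus high was 1.19 ± 0.34 (SE, limma adjusted p = 0.22), and anti-IL6R minus prednisolone was 1.82 ± 0.34 (limma adjusted p = 0.96). Only 1 of the 2 prednisolone arrays was well above background for this probe, so the size of the difference from prednisolone is uncertain. The muscle form Cox6a2 and the lung form Cox4i2 had differences of 0.29 ± 0.19 and 0.09 ± 0.21 for high minus low. Cox7a2l, a factor of respiratory supercomplexes, differed by 0.01 ± 0.20. Cox6c1, which RefSeq lists as a pseudogene related to Cox6c and whose value is uncertain for that reason, gave -0.46 ± 0.27.

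In complex V, Atp5c1, the gamma subunit of the rotating stalk, had 5.32 and 5.18 in anti-IL6R grafts, 4.92 and 5.65 in prednisolone grafts, 5.08 and 4.59 in high-difference grafts and 5.52 and 5.21 in low-difference grafts. Both high-difference arrays lay below every anti-IL6R and low-difference array. The first prednisolone array (4.92) lay between the high-difference arrays, and the second (5.65) was the highest of all. High minus low was -0.53 ± 0.31 (SE, adjusted p = 0.42), anti-IL6R minus high 0.42 ± 0.31 and prednisolone minus high 0.45 ± 0.31. Atp5g1, Atp5g2 and Atp5g3 encode the same mature protein of the membrane ring, and their differences for high minus low were -0.40 ± 0.31, -0.31 ± 0.25 and -0.20 ± 0.24. A second probe of Atp5g2 gave 0.04, against -0.31 for the brighter one. The untested Atp5b, the catalytic beta subunit, had 6.37 and 6.46 in anti-IL6R grafts, 5.74 and 6.23 in prednisolone grafts, 5.72 on the 1 usable high-difference array and 6.55 and 6.38 in low-difference grafts. The high-difference array was the lowest of these 7.

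**Figure D3:**
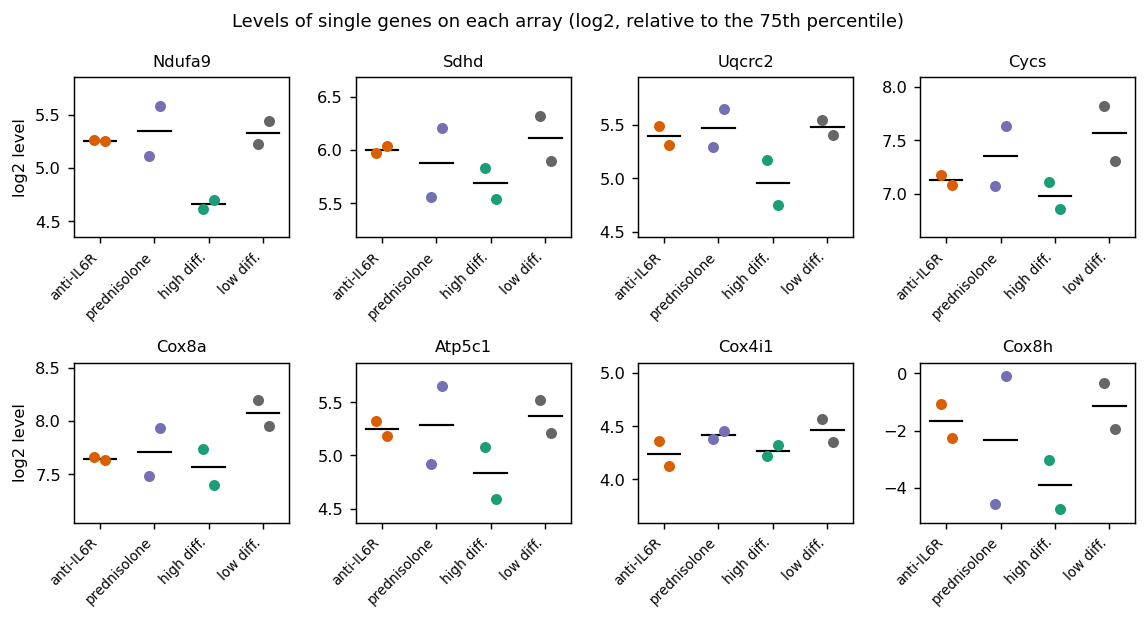
Each panel shows 1 gene, with its log2 level relative to the 75th percentile of the array on the vertical axis, 2 points a group for the replicates and a bar for their mean, from left to right for anti-IL6R, prednisolone, high-difference and low-difference grafts. The vertical axes differ between panels, and that of Cox8h spans more than those of the other genes.

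For anti-IL6R against untreated high-difference grafts, and for prednisolone against them, the treated groups lay on a second slide, so treatment and slide cannot be told apart. The 2 comparisons share the high-difference arrays. With anti-IL6R, 51 of 69 genes lay higher and 18 lower than in high-difference grafts, beside 56.8% lower among all genes. The median was 0.11, or 1.08-fold, and that of all genes -0.09. Both anti-IL6R arrays were above both high-difference arrays for 25 genes and below them for 6, beside 23.4% and 36.3% of all genes. Limma called 0 of 69 genes, beside 0% of all genes, and 2 genes against 17.7% of all genes had an unadjusted p under 0.05. These 2 were Cox6b2 and Ndufa9. By complex the medians were 0.10 for complex I, 0.13 for complex II, 0.17 for complex III, 0.15 for complex IV and 0.04 for complex V. Each was smaller than the replicate spread of 0.21. The prednisolone arrays, which are not part of this comparison, add most to that pooled value. The median for anti-IL6R minus high was 0.33 with quantile normalization, the only alternative that moved it by more than the replicate spread. The lower end of its range over the alternatives, given below, was close to no change. By the median deviation of the 69 genes, the second anti-IL6R array (-0.11) lay below the first high-difference array (-0.06). Not every anti-IL6R array was therefore above every high-difference array. Markers of several other cells also lay higher with anti-IL6R than in high-difference grafts. These were 14 of 14 for T and NK cells (median 2.28) and 13 of 13 for monocytes, macrophages and dendritic cells (1.89). Endothelium had 8 of 8 (0.90), the distal nephron 15 of 17 (0.79) and the proximal tubule 13 of 18 (0.46). Podocytes had 5 of 7 (0.29) and neutrophils 4 of 4 (0.88). Red blood cells had only 1 of 4 higher (-0.30), skeletal muscle 0 of 3 (-0.31) and adipose tissue 2 of 4 (0.10). T and NK cell markers averaged -5.23 and -5.35 on the high-difference arrays, low levels that leave the size of their difference uncertain. The part of these cells in the respiratory values was not tested.

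With prednisolone, 56 of 69 genes lay higher and 13 lower than in high-difference grafts, beside 57.7% lower among all genes. The median was 0.16, or 1.12-fold, beside -0.08 for all genes. Both prednisolone arrays were above both high-difference arrays for 14 genes and below them for 3, beside 13.9% and 25% of all genes. Limma called 0 of 69, beside 0% of all genes. Only Ndufa9 had an unadjusted p under 0.05, beside 11.8% of all genes. Because the replicates disagreed, the median depended on which was used: it was 0.44 without the first prednisolone array and -0.082 without the second. The direction of prednisolone minus high is therefore not settled by these data for the genes as a group. Markers higher with prednisolone than in high-difference grafts numbered 13 of 14 for T and NK cells (median 1.15), with the same low levels. Monocytes, macrophages and dendritic cells had 13 of 13 (1.66) and endothelium 8 of 8 (0.69). The distal nephron had 15 of 17 (0.53) and the proximal tubule 9 of 18 (0.02). Podocytes had 6 of 7 (0.50), neutrophils 4 of 4 (0.82) and red blood cells 4 of 4 (0.39). Skeletal muscle had 0 of 3 higher (-0.28) and adipose tissue 1 of 4 (-0.15). The part of these cells was likewise not tested.

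Between the treatments, 51 of 69 genes lay lower with anti-IL6R than with prednisolone, with a median of -0.07, against 51.9% lower and a median of -0.01 among all genes. The groups did not overlap for 2 genes with anti-IL6R higher and 6 with anti-IL6R lower, beside 11.9% and 14.3% of all genes. Limma called 0 of 69, beside 0% of all genes, and 1 gene, Cox6b2, had an unadjusted p under 0.05, beside 3.4% of all. The median was -0.31 without the first prednisolone array and 0.14 without the second. Against low-difference grafts, 60 of 69 genes lay lower with anti-IL6R (55.3% of all genes), with a median of -0.18. Both anti-IL6R arrays were below both low-difference arrays for 32 genes and above them for 2, beside 23.9% and 15.4% of all genes. With prednisolone 53 of 69 lay lower than in low-difference grafts (52.5% of all genes), with a median of -0.10, which was 0.16 without the first prednisolone array and -0.34 without the second. The arrays did not overlap for 6 genes with prednisolone lower and 1 with it higher, beside 16.8% and 14.8% of all genes. In both comparisons limma called 0 of 69 genes, beside 0% of all. At an unadjusted p under 0.05 there were 0 members with anti-IL6R and 1 with prednisolone, beside 3.08% and 6.01% of all genes. The treated groups again lay on the other slide.

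Other lists of mitochondrial genes did not all show the pattern of the subunits. Among all genes tested, 56% lay above 0 and 44% below 0 for high minus low, with a median of 0.07. For high minus low, the citric acid cycle and pyruvate dehydrogenase genes, which supply the chain with NADH, had 13 of 16 tested members below 0 and a median of -0.19. Idh3a, a subunit of isocitrate dehydrogenase, differed by 0.49 ± 0.18. The list of ADP, phosphate and other membrane carriers, which also holds the Vdac channels and Ckmt1, had a median of -0.29, with 7 of 12 below 0. Its adenine nucleotide carriers Slc25a5 and Slc25a6 differed by -0.60 ± 0.19 and -0.73 ± 0.25. Genes of the mitochondrial ribosome lay above 0 for 24 of 33 members (median 0.09), and import and dynamics genes for 16 of 22 (median 0.11). Assembly factors of the chain were split, with 15 of 28 above 0 (median 0.06) and Ndufaf4 at 0.75 ± 0.18. The regulators of mitochondrial biogenesis were above 0 for 10 of 17 members (median 0.10). The shares of the assembly factors and regulators were near that of all genes, and the ribosome median was also close to that of all genes. Pprc1, a coactivator of the PGC-1 family, differed by 1.07 ± 0.41 and Esrrg by -1.05 ± 0.44. No gene of these lists passed limma's adjusted p, and the difference between these lists and the subunits was not tested. The 13 genes encoded in mitochondrial DNA could not be examined, as 0 of them were matched to a tested probe.

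The markers of other cells moved between the same groups. For high minus low, the 18 proximal tubule markers had a median of -0.59 with 14 below 0, and 15 of 17 markers of the distal nephron (from the loop of Henle to the collecting duct) were below 0, with a median of -1.15. The mean log2 level of the distal nephron list was 2.79 and 2.18 in anti-IL6R grafts, 1.37 and 3.35 in prednisolone grafts, 1.86 and 1.46 in high-difference grafts and 3.31 and 2.61 in low-difference grafts. For the proximal tubule it was 3.77 and 4.11 in anti-IL6R grafts, 3.44 and 2.93 in prednisolone grafts, 3.65 and 2.29 in high-difference grafts and 3.92 and 3.81 in low-difference grafts. The 2 highest and 2 lowest arrays of the distal list were those of the 69 respiratory genes, the second prednisolone and first low-difference arrays at the top and the second high-difference and first prednisolone arrays at the bottom. Of the T and NK cell markers, 14 of 14 were below 0 for high minus low (median -1.56). So were 12 of 13 markers of monocytes, macrophages and dendritic cells (median -1.45). Endothelium had 8 of 8 below 0 (-0.66), podocytes 6 of 7 (-0.49), red blood cells 4 of 4 (-0.75) and adipose tissue 3 of 4 (-0.64). Neutrophils had 2 of 4 below 0 (0.16) and skeletal muscle 1 of 3 (0.09). Low levels of the T and NK cell markers on the high-difference arrays, averaging -5.23 and -5.35, leave the size of their difference uncertain. In whole tissue, fewer cells of a type and less RNA per cell cannot be told apart, and the part of cell composition in the respiratory values was not tested.

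**Figure D4:**
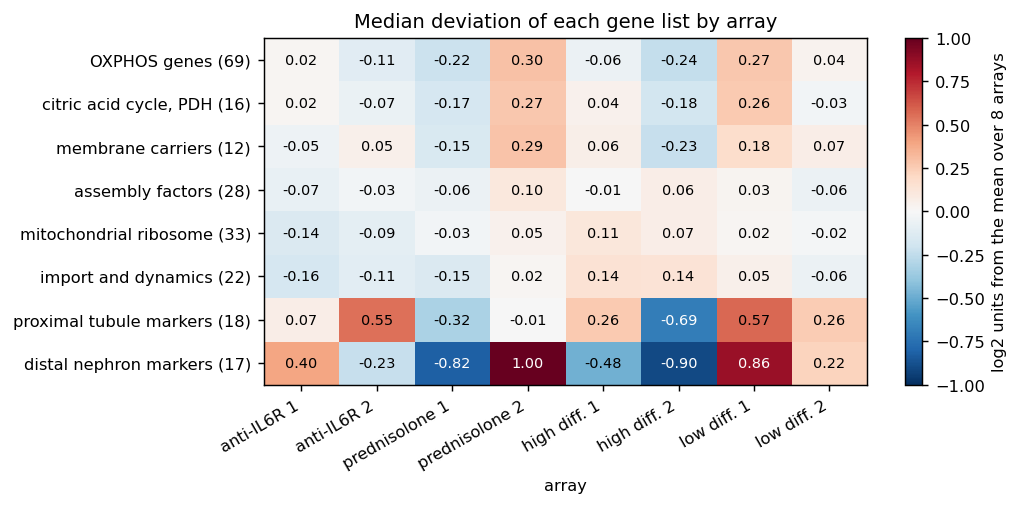
Each cell gives the median, over the genes of a list (number in brackets), of the log2 level minus the gene's mean over the 8 arrays, with arrays from left to right and lists from top to bottom. The rows for respiratory genes, the citric acid cycle, carriers and the 2 nephron lists turn from low to high between the second high-difference and the first low-difference array. The other arrays of these groups do not all follow. In the citric acid cycle row the first high-difference array (0.04) lies above the second low-difference array (-0.03), and in the carrier and proximal tubule rows these 2 arrays are nearly level. The ribosome, assembly and import rows lie between -0.16 and 0.14.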

How the data were processed

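RNA of 8 grafts was labelled with Cy3 (1 µg of total RNA, per the labels' protocols) and, per the file headers, the arrays were quantified with Agilent Feature Extraction, version 9.5.1.1. The deposited intensity values used were the authors' processed signals per spot, background-subtracted by that software, on a linear scale. The authors' deposited value table, an alternative here, holds intensity values equal to the processed signals times 1 factor per array, and the choice of factor is not stated. Its column medians were 105.7 to 106.9. Aligner and genome build do not apply to these probes, and the files' probe positions name no build. No column of per-sample values was left unmapped (0).

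Control spots and outlier-flagged spots were left out, log2 signals were averaged over the spots of a probe, and the 75th percentile of the array was taken off. A probe had to be well above background on the 2 arrays of some group, and a gene was represented by its probe with the highest mean, which left 24461 genes. Names were updated through RefSeq genes of the GRCr8 assembly: an accession matched 51 member probes, a symbol 29 and a synonym 5. Limma 3.58.1 in R 4.3.3 was fitted to all 8 arrays without a block, with 4 residual and 2.37 prior degrees of freedom, with Benjamini-Hochberg adjustment over all genes and a threshold of 0.05. With 2 arrays against 2 no exact permutation test can pass that threshold. Standard errors are limma's moderated ones. Replicates are biological per the series' design text. The steps were tested on simulated data. Alternatives changed the background correction (normexp, offset 50), the normalization, the filters, the probe rule, the flagged spots, the block and the arrays. The member genes and other lists were chosen with earlier results of these data known. Named genes were those with the smallest p in each complex, the fixed isoform pairs, and others said to be picked after their values were seen. Some genes of the other mitochondrial lists are not reported here. Array number limits the precision of all values.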

Additional observations from a re-analysis of the deposited data

How the results depend on the processing

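Limma called 0 member genes in each of the 6 comparisons under all alternatives run. The median of the 69 genes for high minus low stayed below 0, between -0.40 and -0.18 over these alternatives, and for anti-IL6R minus high above 0, between 0.01 and 0.33, the upper end with quantile normalization. Values that include the prednisolone group rested on single arrays: with arrays left out 1 at a time, the median ranged from -0.082 to 0.44 for prednisolone minus high, from -0.31 to 0.14 for anti-IL6R minus prednisolone and from -0.34 to 0.16 for prednisolone minus low. The lone array of a group is then assumed to vary like the other groups. Among single genes, Cox7a2l for high minus low, near 0 throughout, was -0.064 with normexp, -0.048 with quantile normalization and -0.00363 with flagged spots kept. With arrays left out 1 at a time it ranged from -0.20 to 0.22, Cox4i2 from -0.085 to 0.26 and Atp5g3 from -0.43 to 0.023. Cox8a likewise ranged from -0.089 to 0.25 for anti-IL6R minus high and from -0.082 to 0.37 for prednisolone minus high, and Cox8h from -0.69 to 3.80 for prednisolone minus high. For Cox8h, high minus low was -1.24 when the probes of a gene were averaged and -1.89 with normexp. Of the 75 differences of the 25 named genes in the comparisons high minus low and either treatment minus high, 16 changed sign without the second high-difference array and 10 without the second prednisolone array. The cause was not tested. Over all genes, limma called 0 in the 6 comparisons as reported, and up to 224 genes (prednisolone minus high) without the first prednisolone array. The replicate numbers share no animal or day in the labels, and the correlations of same-numbered deviations between groups lay between -0.35 and 0.37. With the number as a replicate block the median for high minus low was again -0.28, and no call changed. With 2 arrays a group, the number of arrays limits these values.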
